A study of Mus musculus with 20 samples.

Results

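Immune cells sorted by the surface protein CD45 from 66cl4 mammary tumours were compared with those from 67NR mammary tumours. The libraries were chosen by title, where the tumour line, mouse number and gate are written: 5 CD45+ libraries of 66cl4 (animals 3, 4, 5, 6 and 7) and 5 of 67NR (animals 1, 4, 5, 6 and 7), 10 of the 20 libraries in the study, whose other 10 are the CD45- cells of the same tumours. Both lines belong to the 4T1 mouse breast cancer model, in which 67NR forms primary tumours that do not metastasise and 66cl4 forms tumours that do. In both groups 1000000 cells of 1 line were injected into a mammary fat pad of adult female BALB/cJ mice with an intact immune system, no treatment was given, and the viable cells of the dissociated tumour were sorted. Each library came from a separate animal, and each tumour type stands for 1 cell line. The comparison asked which genes the immune cells of a metastatic tumour express at other levels than those of a non-metastatic tumour.

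CD45 is a phosphatase on the surface of nearly all nucleated blood cells, so the gate collects neutrophils, monocytes, macrophages, dendritic cells, lymphocytes and mast cells together. Tumours recruit these cells from the blood through chemokines. Inside the tumour, myeloid cells can release proteases and growth factors and adapt to low oxygen by glycolysis, whereas natural killer (NK) cells and T cells release granzymes and interferon gamma, which induces chemokines and antigen presentation in the cells around them.

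The CD45+ libraries of 66cl4 held 13729266 to 21495951 estimated counts in total and those of 67NR 12960000 to 18372284. Levels are given below as normalised counts (counts divided by the size factor of the library), for 66cl4 in the order of animals 3, 4, 5, 6 and 7 and for 67NR of animals 1, 4, 5, 6 and 7. The recorded cell type of 66cl4 animals 5 and 6 contradicts the titles of both their libraries (4 titles in all), and the main counts below are therefore also given without these animals. Ptprc, which encodes CD45, was 20509, 20867, 17697, 20442 and 18038 in the 66cl4 CD45+ libraries and 16840, 15890, 21643, 28449 and 26600 in those of 67NR, against 10.6 to 473 in the 10 CD45- libraries, so the 2 animals in question carried Ptprc where their titles say CD45+. Between the CD45+ groups the Ptprc mean ratio was 0.892 (exact permutation test, two-sided, p = 0.397), and the groups overlapped. Mitochondrial genes took 7.89 to 12.2% of the counts in 66cl4 and 7.48 to 19% in 67NR, the highest in animal 1. Pairs of libraries correlated across genes with a median Spearman rho of 0.969 within 66cl4, 0.974 within 67NR and 0.933 between them (genes are not independent replicates, and the libraries share the gate).

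Of 14676 genes tested, 1736 (11.8%) were called between the CD45+ groups, with an adjusted p under 0.05 in edgeR's quasi-likelihood test and an absolute log2 fold change over 1. In 66cl4, 735 (5.01%) were higher and 1001 (6.82%) lower. These shares are the background for every count of list members called below. In these bulk libraries, fewer cells of a type and less RNA per cell cannot be told apart. The median log2 fold change of all tested genes was 0.01. Without 66cl4 animals 5 and 6, 1297 genes were called, of which 1109 were among the 1736. No overlap between the 5 libraries of each tumour was seen for 2211 tested genes (15.1%), among them 551 of the called higher and 681 of the called lower genes. The gate of these genes differed by direction: 599 of the 735 higher genes (81.5%) had a mean in 66cl4 CD45+ cells at least as high as in 66cl4 CD45- cells, whereas 368 of the 1001 lower genes (36.8%) did so in 67NR. Over all 14676 tested genes, 8118 did so in the tumour where they were higher. The other 633 lower genes had a median CD45+ level of 22.8% (quartiles 18.2 and 31.6%) of the CD45- level in 67NR, and the other 136 higher genes one of 13.3% (quartiles 5.33 and 56.5%) in 66cl4. Whether RNA of CD45- cells contributed to these was not tested.

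**Figure D1:**
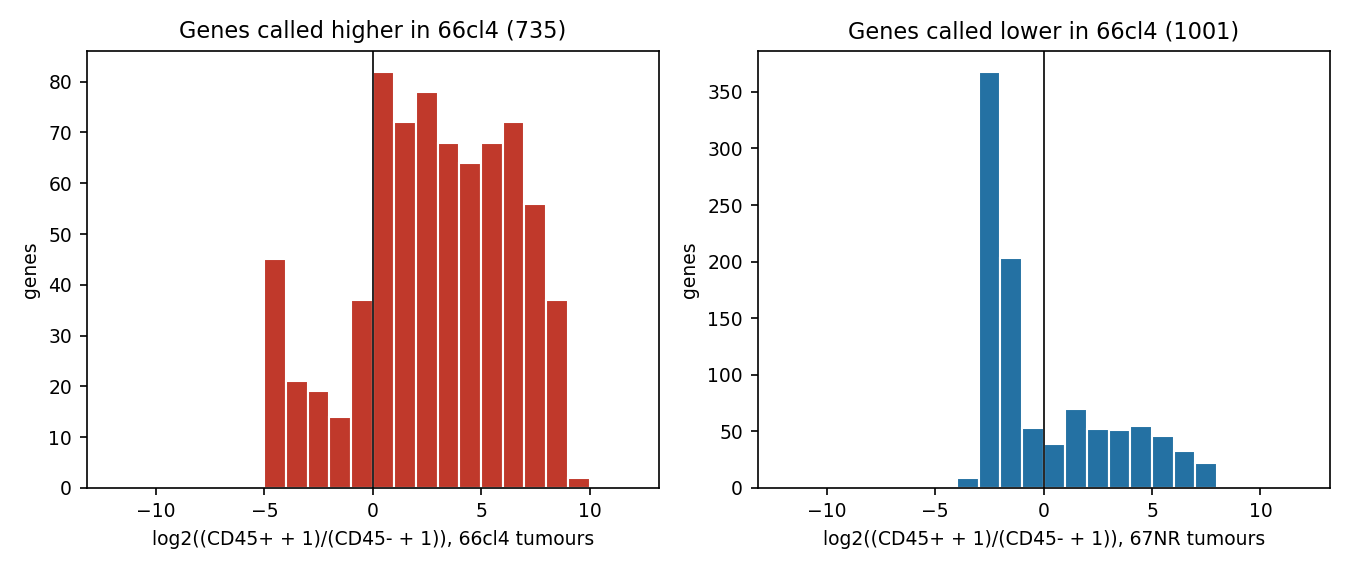
Histograms of called genes by the log2 ratio of their mean level in CD45+ cells to that in CD45- cells of the tumour where they are higher, each mean plus 1 normalised count. The left panel holds the 735 genes higher in 66cl4, most of them to the right of 0, and the right panel the 1001 genes lower in 66cl4, most of them to the left of 0.

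Mmp9, Cxcl14, F5, Mlxipl and Saa3 were among the genes with the largest rise in 66cl4 CD45+ cells. The group held the 15 largest changes among called genes that were at least as high in CD45+ as in CD45- cells and whose libraries did not overlap, apart from 12 genes that the study had singled out. Mmp9, a gelatinase that degrades collagen of the basement membrane, was 10832, 5082, 9533, 5864 and 8553 in 66cl4 and 666, 613, 697, 374 and 409.5 in 67NR (log2 fold change 3.86, SE 0.28, adjusted p = 1.16e-05). Each 66cl4 library held at least 5082 and no 67NR library more than 697, and without 66cl4 animals 5 and 6 the log2 fold change was 3.88. Cxcl14, a chemokine, was 2199, 1078, 2371, 1893 and 1367 in 66cl4 and 105, 133, 102, 95.9 and 151 in 67NR (log2 fold change 3.93, SE 0.23, adjusted p = 2.82e-06). F5, coagulation factor V, was 2985, 1630, 3641, 1738 and 1890 in 66cl4 and 356, 162, 162, 251.6 and 114 in 67NR (log2 fold change 3.51, SE 0.36, adjusted p = 0.000171). Neither gene had a 67NR library near the lowest of 66cl4. Mlxipl, a transcription factor that responds to glucose, was 169.7, 93.6, 225, 126 and 216 in 66cl4 and at most 5.14 in 67NR (log2 fold change 5.37, SE 0.37, adjusted p = 8.58e-06). Saa3, an acute phase protein, ranged more widely among the 66cl4 animals, from 164 to 830, and stayed at 71.9 or below in 67NR (log2 fold change 3.44, SE 0.55, adjusted p = 0.00183).

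The other genes of this group were, by the rule, also separate between the tumours. Gzmg, described below with the granzymes, also met the rule, with a larger log2 fold change than Mlxipl. Log2 fold changes (± SE here and below) were 4.78 ± 0.39 for Ambp, the precursor of a heme-binding plasma protein, 4.59 ± 0.40 for Sel1l3, 4.07 ± 0.29 for Fam20a, 4.01 ± 0.33 for Edil3, an integrin-binding matrix protein, 3.82 ± 0.34 for Col14a1, a collagen, and 3.54 ± 0.50 for Lix1. Olr1, a scavenger receptor for oxidised lipoprotein, rose from 16.5 to 56.2 in 67NR to 164 to 468 in 66cl4. Raet1d, a ligand of the activating receptor NKG2D, was 522 to 1187 in 66cl4 and 53.5 to 143 in 67NR, and Klrk1, which encodes that receptor, was called in the other direction (-2.06 ± 0.25). For 13 of these 15 genes, among them Cxcl14, Fam20a, Col14a1 and Mmp9, the log2 fold change was more positive in CD45+ than in CD45- cells (interaction, adjusted p under 0.05). For Cxcl14, Fam20a and Col14a1 the interaction (4.80, 5.55 and 4.99) exceeded the CD45+ log2 fold change. Their estimated CD45- difference thus had the opposite sign. The test was passed by 43.1% of 16453 genes, counting both directions, and by 399 of the 735 called higher genes in the positive direction. Since the rule chose the 15 by their CD45+ change and gate, their count is a description.

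**Figure D2:**
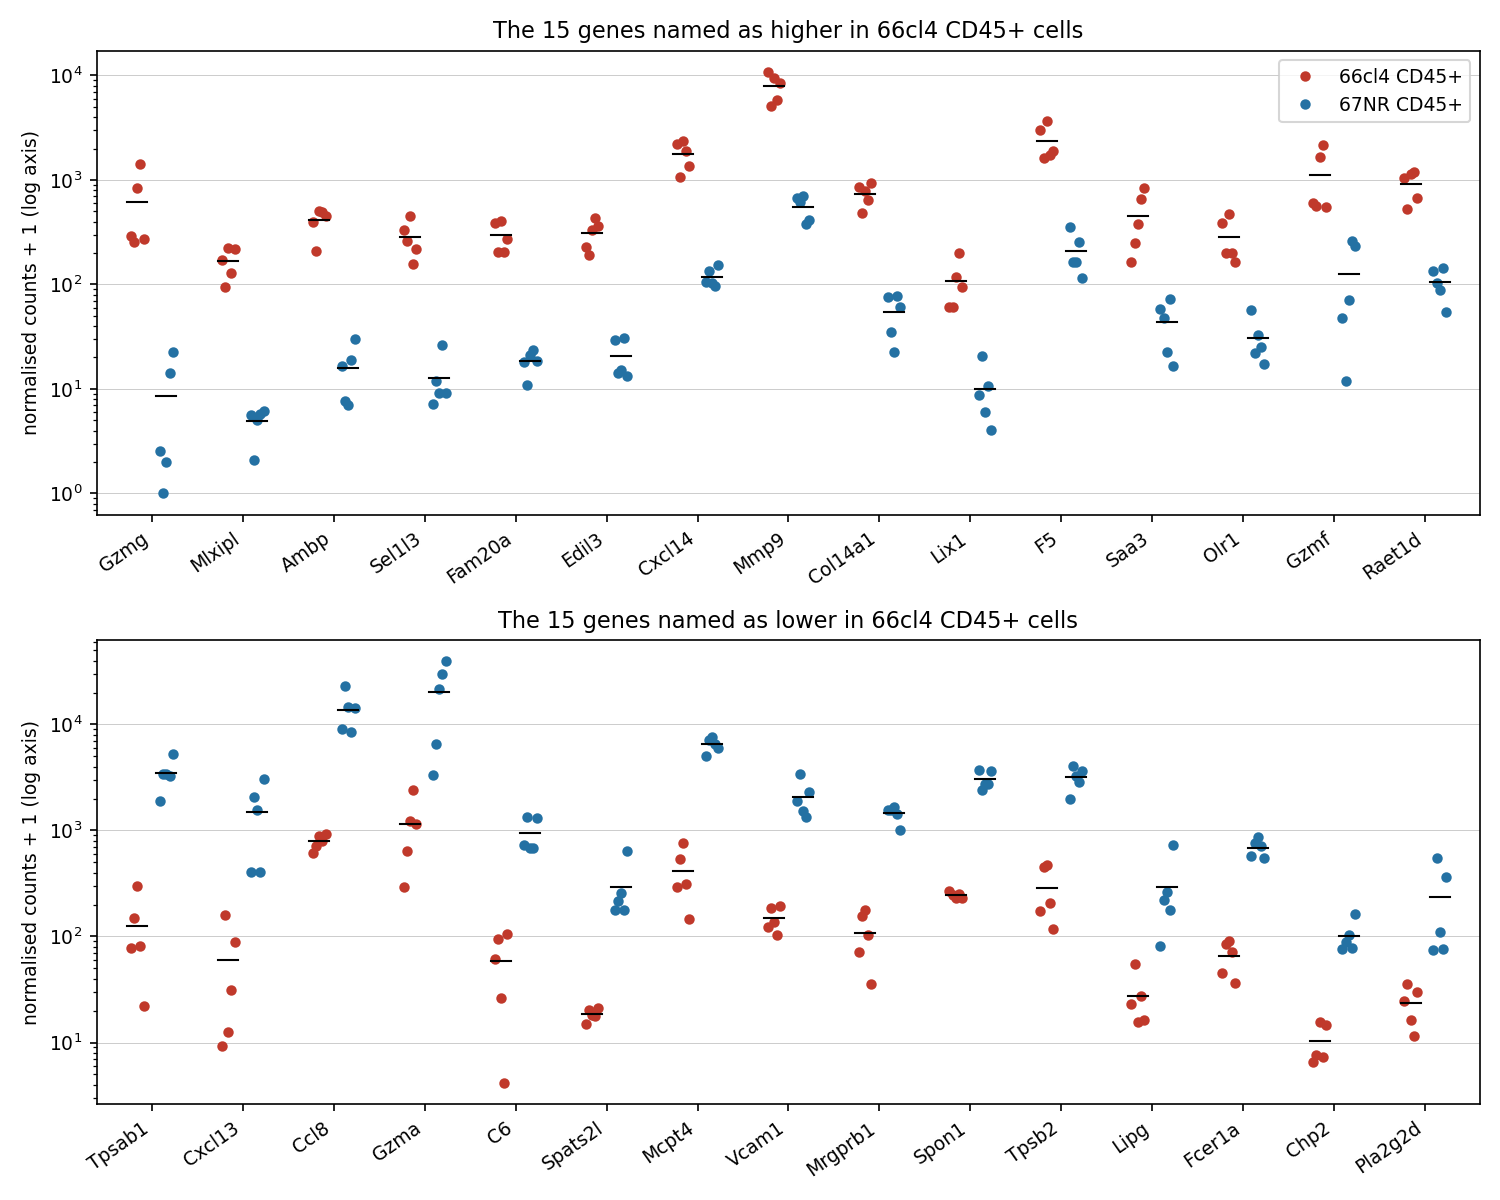
Normalised counts plus 1, on a log axis, of the 15 genes with the largest rise and the 15 with the largest fall in 66cl4 CD45+ cells, chosen by the rule in the text. Each point is 1 animal and the bar is the group mean, and by the rule no gene has overlapping groups.

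Among the 15 largest falls, chosen in the same way, 5 were genes of mast cells. The others included chemokines, the complement protein C6, the granzyme Gzma (given below) and an adhesion molecule. Spon1, a secreted matrix protein, was 269.8, 243, 228, 250.4 and 227 in 66cl4 and 3733, 2411, 2734, 2761 and 3610 in 67NR (log2 fold change -3.63, SE 0.15, adjusted p = 1.85e-07). All 5 animals of 66cl4 lay within a narrow range, far below those of 67NR, and without 66cl4 animals 5 and 6 the log2 fold change of Spon1 was -3.63. Ccl8, a chemokine for monocytes, lymphocytes and mast cells, was 611, 712, 888, 803 and 924 in 66cl4 and 9068, 22848, 14464, 8478 and 14234 in 67NR (log2 fold change -4.12, SE 0.28, adjusted p = 8.58e-06). Vcam1, which binds the integrin VLA-4 on leukocytes, was 121, 184, 137, 103 and 194 in 66cl4 and 1889, 3389, 1514, 1334 and 2282 in 67NR (log2 fold change -3.79, SE 0.29, adjusted p = 2.47e-05). Cxcl13, which attracts B cells, varied over more than an order of magnitude within 66cl4, at 8.35, 158, 11.6, 30.5 and 87, and was 403, 2070, 1551, 407 and 3090 in 67NR (log2 fold change -4.60, SE 0.89, adjusted p = 0.0053).

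Complement genes were among those called lower, C6 within the 15 largest falls and Cfb outside them. Cfb, the protease of the alternative pathway, was 314, 309, 302, 296 and 319.5 in 66cl4 and 2109, 2186, 2312, 2290 and 4371 in 67NR (log2 fold change -3.08, SE 0.19, adjusted p = 2.82e-06). C6, a part of the membrane attack complex, was 59.8, 92.7, 25.1, 3.16 and 105 in 66cl4 and 726, 1340, 681, 681 and 1307 in 67NR (log2 fold change -4.01, SE 0.62, adjusted p = 0.00148). In both, all 66cl4 animals were below all 67NR animals. Of 25 complement genes tested, 4 fell (C2, C4b, C6 and Cfb) and 3 rose, namely the receptors C5ar1 and C5ar2 and the integrin chain Itgam (median log2 fold change -0.19). The shares were 16 and 12%, beside 6.82% called lower and 5.01% called higher over all genes. The counts were again 4 and 3 without 66cl4 animals 5 and 6, although C4b lost its call (adjusted p = 0.0706). C4b also lost it without a filter on low counts (adjusted p = 0.0835) and without 66cl4 animal 3 or 67NR animal 4 or 7, and Itgam without 66cl4 animal 5. Among the 15 largest falls, the remaining log2 fold changes included -4.01 ± 0.38 for Spats2l and -3.43 ± 0.59 for the endothelial lipase Lipg. They were -3.37 ± 0.34 for Chp2 and -3.35 ± 0.65 for the secreted phospholipase Pla2g2d.

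Neutrophil markers were higher in 66cl4: of 19 tested, 12 rose, none fell, and the median log2 fold change was 1.99, beside 5.01% called higher and a median of 0.01 over all genes. The summed level of the neutrophil list was 176653, 93241, 201936, 166254 and 71572 in 66cl4 and 75886, 39837, 24968, 24065 and 10874 in 67NR, so that 66cl4 animal 7 lay below 67NR animal 1. The count depended on the libraries. It was 6 without 66cl4 animals 5 and 6, and with 1 library left out it was 8 without 66cl4 animal 3 or 5, 7 without 67NR animal 4 or 5, 8 without 67NR animal 6 and 10 to 16 without any other. The median was 1.59 without 66cl4 animals 5 and 6.

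Members of the list that rose included enzymes, receptors and lectins, and the maturity of the cells was not tested. Acod1, which makes itaconate, was 6867, 4215, 12049, 5443 and 2885 in 66cl4 and 2463, 1302, 789, 715 and 321 in 67NR (log2 fold change 2.48, SE 0.56, adjusted p = 0.0106). Cxcr2, the main chemokine receptor of neutrophils, was 8160, 4265, 6695, 5314 and 3965 in 66cl4 and 2827, 1466, 1184, 1026 and 504 in 67NR (log2 fold change 2.01, SE 0.42, adjusted p = 0.00724). Csf3r, the receptor of the growth factor G-CSF, was 12573, 6866, 10773, 6561 and 6232 in 66cl4 and 4923, 3070, 3038, 2528 and 2419 in 67NR (log2 fold change 1.43, SE 0.26, adjusted p = 0.00277). For all 3 genes the groups were separate, with 67NR animal 1 the highest of its group. Clec4e, a lectin that senses mycobacterial lipid, was 15352, 8747, 20053, 15876 and 8061 in 66cl4 and 5564, 2248, 2494, 2887 and 1102 in 67NR (log2 fold change 2.24, SE 0.42, adjusted p = 0.00419). Lcn2, an iron-binding granule protein of neutrophils, did not pass the test, at 348 to 1128 in 66cl4 and 50.4 to 535 in 67NR.

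**Figure D3:**
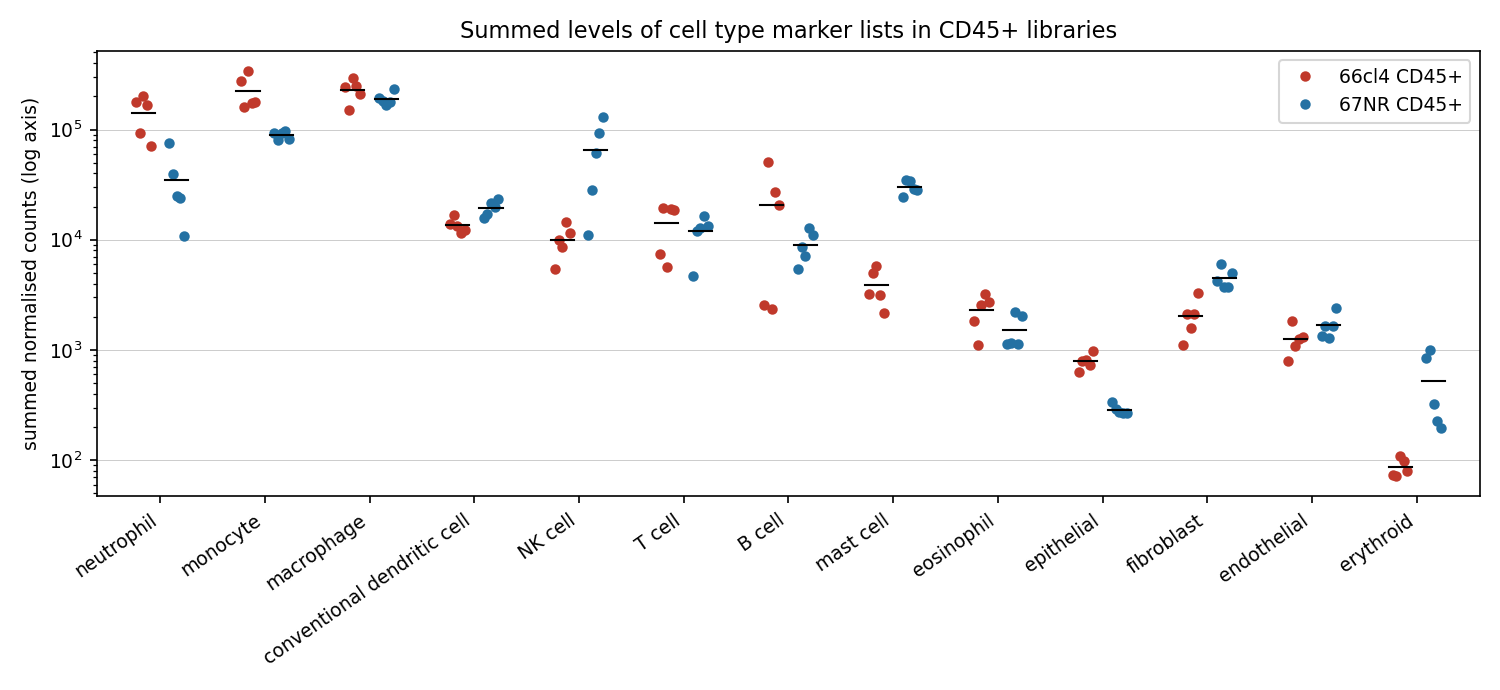
Summed normalised counts of the members of each marker list, on a log axis, in the CD45+ libraries of both tumours. Each point is 1 animal and the bar is the group mean. Mast cell sums are 2181 to 5768 in 66cl4 and 24636 to 34597 in 67NR, and the 66cl4 neutrophil sums reach 201936.

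NK cell markers were lower in 66cl4. Of 16 tested, 15 fell and none rose, with a median log2 fold change of -2.36, beside 6.82% called lower over all genes. Their sum was 5434, 10024, 8615, 14424 and 11517 in 66cl4 and 11152, 28550, 61784, 93299 and 129896 in 67NR, and 67NR animal 1 was within the 66cl4 range. In 67NR the order of the animals by this sum was the reverse of their order by the neutrophil sum. The share of mitochondrial counts in 67NR, at 19, 12.3, 11.8, 9.61 and 7.48%, ran in the order of the neutrophil sum and against that of the NK sum, whereas the 66cl4 shares, at 9.03, 12.2, 7.89, 11.1 and 9.99%, followed neither sum. Its part in these differences was not tested. The number that fell was 7 without 66cl4 animals 5 and 6 and 11 to 15 with any 1 library left out, while the median was -2.50 without those animals. Ncr1, the activating receptor NKp46, was 299, 723, 538, 1304 and 911 in 66cl4 and 698, 2016, 4277, 7060 and 8004 in 67NR (log2 fold change -2.50, SE 0.61, adjusted p = 0.0148). Klra4, a receptor of the Ly49 family, was -3.04 ± 0.53 on the log2 scale, and Ccl5, a chemokine of NK and T cells, was 1349, 1711, 1290, 1342 and 1330 in 66cl4 and 2209, 6322, 7662, 8672 and 11558 in 67NR (log2 fold change -2.34, SE 0.33, adjusted p = 0.000725). Only 67NR animal 1, at 2209, came near the 66cl4 animals for Ccl5.

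Granzymes, the serine proteases of cytotoxic granules, moved in both directions. Of 20 cytotoxic genes tested, 6 rose and 10 fell. The shares were 30 and 50%, beside 5.01% called higher and 6.82% called lower over all genes. Gzma was 289, 637, 1215, 2416 and 1152 in 66cl4 and 3365, 6607, 21729, 30193 and 39388 in 67NR (log2 fold change -4.11, SE 0.76, adjusted p = 0.00399), and Gzmb was 1090, 1554, 2106, 3598 and 1995 in 66cl4 and 2138, 4194, 10767, 19532 and 30474 in 67NR (log2 fold change -2.65, SE 0.64, adjusted p = 0.0148). Groups were separate for Gzma and overlapped for Gzmb through 67NR animal 1. Gzmg went the other way, at 291, 255, 839, 1414 and 272 in 66cl4 and 1.56, 0, 1.02, 13.2 and 21.6 in 67NR (log2 fold change 6.31, SE 0.87, adjusted p = 0.000836). Gzmf was 605, 568, 1674, 2152 and 547 in 66cl4 and 46.8, 11, 70.1, 260.0 and 230.4 in 67NR (log2 fold change 3.19, SE 0.74, adjusted p = 0.0126). In both, the highest 67NR library was below the lowest of 66cl4. Gzmc (2.22 ± 0.72), Gzmd (2.51 ± 0.76) and Gzme (2.50 ± 0.79) were also called higher. Without 66cl4 animals 5 and 6, 6 of the cytotoxic genes fell. The count of 6 rising genes became 2 without 66cl4 animals 5 and 6 and 3 without any 1 of 66cl4 animals 5, 6 or 7 or 67NR animals 1, 4 or 5, Gzmg being called under each of these settings. Gzmc to Gzmg are near-identical genes, and how the estimation shared reads among them is uncertain.

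**Figure D4:**
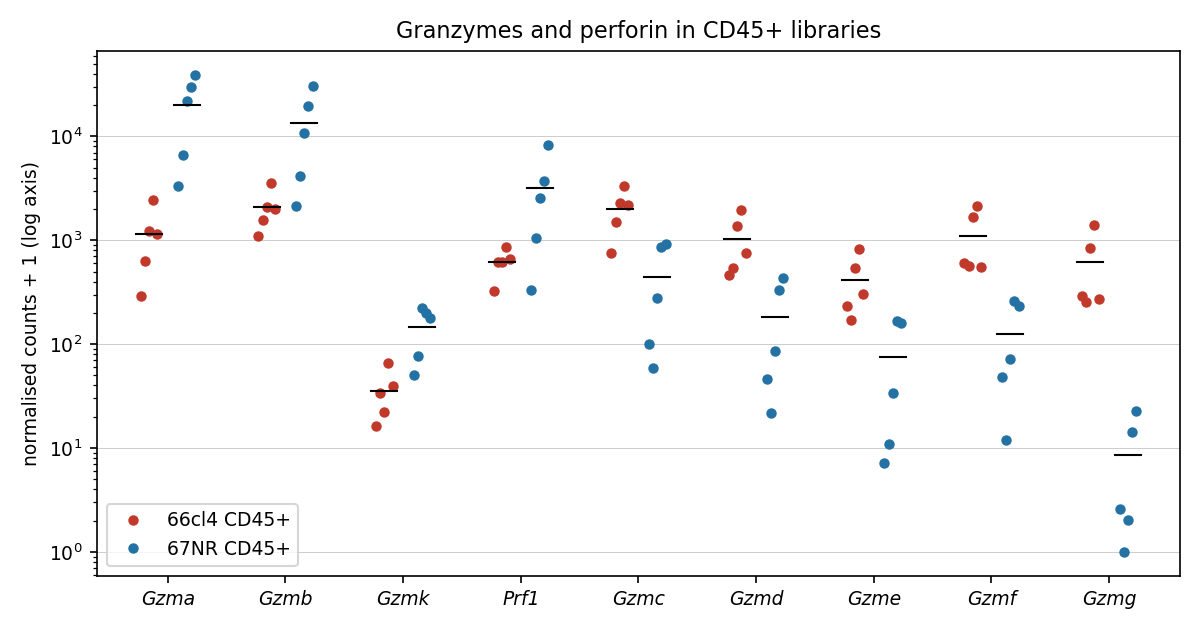
Normalised counts plus 1, on a log axis, of granzyme genes and Prf1 (perforin) in the CD45+ libraries, 1 point per animal with the group mean as a bar. Gzma and Gzmb are higher in 67NR, and Gzmg is at 255 or more in every 66cl4 animal and at 21.6 or less in every 67NR animal.

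T cell genes gave few calls. Of 18 tested, 1 was called, Il7r, the receptor of interleukin 7 (1.04 ± 0.23), which kept its call without 66cl4 animals 5 and 6 and lost it without any 1 of 66cl4 animals 4 or 6 or 67NR animals 5 or 7. Without 66cl4 animal 5, 3 were called. The T cell receptor chain Cd3e was 412, 1117, 202, 738 and 1048 in 66cl4 and 165, 851, 694, 649.5 and 558 in 67NR. Ifng, which encodes interferon gamma and is made by NK and T cells, was 40.3, 58.3, 25.1, 37.9 and 68.5 in 66cl4 and 108, 301, 443, 528 and 617 in 67NR (log2 fold change -3.08, SE 0.43, adjusted p = 0.000769). The lowest 67NR animal, at 108, was above the highest 66cl4 animal, at 68.5. Tigit, an inhibitory receptor of NK and T cells, fell by 1.59 on the log2 scale, with CD45- means of 992 and 109.6 in 66cl4 and 67NR. B cell genes were unlike between animals of 1 tumour. Ms4a1, the B cell protein CD20, was 44.5, 4824, 27, 4059 and 1942 in 66cl4 and 82.7, 136, 115, 1065 and 71 in 67NR (log2 fold change 2.92, SE 1.38, adjusted p = 0.167), and none of 15 B cell genes was called over the 10 libraries by edgeR (5 had an unadjusted p under 0.05) or without 66cl4 animals 5 and 6. DESeq2 called 4 higher, and edgeR called 8 higher with all 20 libraries in the fit, 2 without 67NR animal 6 and 1 without 66cl4 animal 5.

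Mast cell genes were lower in 66cl4. Of 14 tested, 12 fell in 66cl4 (85.7%, beside 6.82% over all genes) and none rose, with a median log2 fold change of -2.97. The count stayed at 12 without 66cl4 animals 5 and 6 and with any 1 library left out. The mast cell protease Mcpt4 was 295, 533, 768, 312 and 144 in 66cl4 and 5079, 7173, 7625, 6547 and 6011 in 67NR (log2 fold change -3.97, SE 0.39, adjusted p = 0.000139). Tpsab1, a tryptase, was 76.5, 147, 301, 81 and 21.1 in 66cl4 and 1901, 3437, 3426, 3280 and 5241 in 67NR (log2 fold change -4.76, SE 0.60, adjusted p = 0.000526). Fcer1a, a chain of the high affinity IgE receptor, was 44.5, 84.1, 88.7, 70.5 and 35.5 in 66cl4 and 568, 753, 866, 714 and 544 in 67NR (log2 fold change -3.40, SE 0.26, adjusted p = 1.55e-05). No library of 66cl4 reached the lowest of 67NR for any of these. Cpa3 (-2.97 ± 0.28), Cma1 (-2.93 ± 0.28), Tpsb2 (-3.46 ± 0.40) and Mrgprb1 (-3.74 ± 0.39) gave the same direction, whereas Kit, the stem cell factor receptor that other cells also carry, was 237 to 635 in 66cl4 and 523 to 801 in 67NR. Mast cell genes were also present in the 67NR CD45- libraries, with sums of 1193, 1178, 7052, 8763 and 24747, beside 281 to 363 in the 66cl4 CD45- libraries. Tpsab1 and Tpsb2 are near-identical, and their separate counts are uncertain.

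Macrophage and monocyte genes changed in both directions. Of 23 macrophage genes tested, 3 rose and 4 fell (median log2 fold change -0.18), and of 15 monocyte genes 6 rose and 3 fell (0.54). The shares were 13 and 17.4%, and 40 and 20%, beside 5.01% higher and 6.82% lower over all genes. Without 66cl4 animals 5 and 6, 1 macrophage gene rose and 5 fell, and 4 monocyte genes rose and 3 fell. Summed over the monocyte list, every 66cl4 animal (lowest 159025) exceeded every 67NR animal (highest 97093) in CD45+ cells. This total is no measure of monocytes alone, since no CD45- library fell below 92946. For 67NR even the lowest CD45- total, 98830, lay above the highest CD45+ total. The median list member had a CD45- level of only 0.725% of its CD45+ level in 66cl4 and 3.14% in 67NR. Which members carried the totals was not tested. The macrophage sums overlapped, with a median of 242338 for 66cl4 beside 182368 for 67NR. They were 119277 to 167527 in the CD45- libraries, so this sum also holds genes that CD45- cells express. Spp1 was among the 3 macrophage genes that rose, although its 66cl4 mean was lower in CD45+ than in CD45- cells. The called genes described next all fell. Csf1r, the growth factor receptor of macrophages, was 7533 to 12806 in 66cl4 and 9683 to 16768 in 67NR. Adgre1, which encodes F4/80, was 2893, 2460, 3791, 2499 and 3469 in 66cl4 and 4935, 6741, 6440, 6363 and 8453 in 67NR (log2 fold change -1.11, SE 0.16, adjusted p = 0.000672). Siglec1, a sialic acid receptor of tissue macrophages, was 775, 940.2, 1073, 614 and 1592 in 66cl4 and 1825, 2960, 3041, 2907 and 6610 in 67NR (log2 fold change -1.76, SE 0.33, adjusted p = 0.00405). Spic, a transcription factor of red pulp macrophages, and Apoe, a lipid carrier, also fell (-2.46 ± 0.31 and -1.34 ± 0.21). All 4 were separate between the groups. Axl (-1.27 ± 0.17) and its ligand Gas6 (-1.59 ± 0.24), which take part in the uptake of dying cells, were lower, although Axl was higher in CD45- cells of both tumours, with means of 10882 and 8875.

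Chemokine genes were called in both directions: of 14 CC ligands 3 rose and 3 fell, and of 13 ligands of the CXC and related classes 2 rose and 6 fell. The shares were 21.4 and 21.4%, and 15.4 and 46.2%, beside 5.01% higher and 6.82% lower over all genes. The CC counts were the same without 66cl4 animals 5 and 6, and 2 CXC ligands rose and 4 fell. Ccl24, which attracts eosinophils, was 5245, 2044, 6241, 5527 and 2161 in 66cl4 and 665, 473, 735, 865 and 629 in 67NR (log2 fold change 2.67, SE 0.33, adjusted p = 0.000425). Ccl6 was 74049, 40370, 87937, 97581 and 56315 in 66cl4 and 18956, 12107, 20290, 21360 and 11512 in 67NR (log2 fold change 2.09, SE 0.27, adjusted p = 0.000425), and Ccl9, a related chemokine, gave 1.98 ± 0.26. Cxcl2, a ligand of Cxcr2, was 45689, 25712, 48952, 45137 and 18742 in 66cl4 and 16858, 11012, 7754, 9646 and 3404 in 67NR (log2 fold change 1.91, SE 0.41, adjusted p = 0.00778). All of these were separate between the groups. Of 27 receptors for chemokines and other attractants, 11 rose and 3 fell (9 and 1 without 66cl4 animals 5 and 6). C5ar1, the receptor of the complement fragment C5a, was 11124, 6132, 11378, 7509 and 7344 in 66cl4 and 3168, 2631, 2556, 2781 and 3131 in 67NR (log2 fold change 1.62, SE 0.18, adjusted p = 0.000171). The 3 that fell were Cxcr3, Cxcr6 and Xcr1, receptors of T and NK cells and of cross-presenting dendritic cells, and Xcr1 alone was called without 66cl4 animals 5 and 6. Cxcr3 and Cxcr6 also lost their calls without any 1 of 66cl4 animals 3, 5 or 6 or 67NR animals 4 or 5, and Cxcr3 without 66cl4 animal 7 or 67NR animal 6 or 7.

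Sensors of microbes and the cytokines they induce were partly higher. Of 46 pattern recognition genes tested, 10 rose and 4 fell (9 and 2 without 66cl4 animals 5 and 6). Over the 10 libraries the shares were 21.7 and 8.7%, beside 5.01% higher and 6.82% lower over all genes. Without 66cl4 animal 3, 7 fell. Cd14, the co-receptor for lipopolysaccharide, was 55442, 32305, 69869, 55534 and 30045 in 66cl4 and 15699, 9820, 16411, 12173 and 8314 in 67NR (log2 fold change 1.96, SE 0.28, adjusted p = 0.000653). Cd36, a scavenger receptor for lipids, was 5534, 3541, 7999, 7542 and 3471 in 66cl4 and 798, 825, 1255, 1329 and 758 in 67NR (log2 fold change 2.51, SE 0.28, adjusted p = 0.000197). The lowest 66cl4 animal was above the highest 67NR animal for both. Trem1 (2.43 ± 0.47), an amplifier of myeloid activation, and Nlrp3 (2.04 ± 0.35), an inflammasome sensor, rose too. Il1rn, the antagonist of interleukin 1, was 14739, 9478, 18678, 16038 and 8141 in 66cl4 and 5330, 4209, 3412, 3179 and 1891 in 67NR (log2 fold change 1.89, SE 0.31, adjusted p = 0.00148). Of 29 targets and regulators of NF-kB, 10 rose (34.5%, beside 5.01% over all genes) and none fell (median 0.72). The count was 6 without 66cl4 animals 5 and 6 and 7 to 10 with any 1 library left out. Cd80, a costimulatory ligand for T cells, rose (2.19 ± 0.28), as did the protease Adam8 (2.36 ± 0.26), coagulation factor F10 (2.58 ± 0.37) and the arginine transporter Slc7a2 (3.09 ± 0.43).

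Interferon response genes were lower in 66cl4 in a group that moved together. All 40 tested genes of the type I interferon response had a negative log2 fold change (median -1.0). Of them 19 (47.5%, beside 6.82% over all genes) fell beyond the threshold while none rose. Without 66cl4 animals 5 and 6 the count was again 19, and it was 16 to 25 with any 1 library left out. List sums in CD45- cells were also lower in 66cl4, at 12614 to 13420 beside 17846 to 26167 in 67NR. Ifit2, an antiviral protein that binds RNA, was 312, 456, 272, 437 and 344 in 66cl4 and 1516, 1243, 1720, 2042 and 2139 in 67NR (log2 fold change -2.23, SE 0.18, adjusted p = 2.99e-05). Mx1, a GTPase induced by interferons, was 439.5, 468, 309, 327 and 314 in 66cl4 and 1196, 864, 1345, 1596 and 2030 in 67NR (log2 fold change -1.90, SE 0.21, adjusted p = 0.000174). Irf7, the transcription factor that amplifies the response, was 2590, 2954, 2477, 2844 and 2085 in 66cl4 and 6167, 6393, 9029, 8830 and 13934 in 67NR (log2 fold change -1.75, SE 0.20, adjusted p = 0.000203). In each the groups were separate. Rsad2, which makes an antiviral nucleotide, was 1196 to 2380 in 66cl4 and 1829 to 3109 in 67NR and did not pass the test.

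Of 29 genes of the interferon gamma response, 17 fell and 1, Upp1, rose (median -1.12). The shares were 58.6 and 3.45%, beside 6.82% lower and 5.01% higher over all genes. Without 66cl4 animals 5 and 6, 14 fell and none rose, and Upp1 also lost its call without any 1 of 66cl4 animals 3, 5 or 6 or 67NR animals 5, 6 or 7. Cxcl9, a ligand of Cxcr3, was 829, 916, 660.5, 839 and 598 in 66cl4 and 2689, 5097, 2888, 2382 and 2074 in 67NR (log2 fold change -1.97, SE 0.24, adjusted p = 0.000332). Cxcl10, another ligand of this receptor, was 1714, 1471, 1167, 1427 and 1005 in 66cl4 and 2986, 3018, 4237, 3996 and 4698 in 67NR (log2 fold change -1.46, SE 0.17, adjusted p = 0.000204). Iigp1, a GTPase against parasites inside cells, gave -2.04 ± 0.28, and Il18bp, which binds interleukin 18, gave -1.83 ± 0.14. These were separate between the groups. The 20 genes of MHC class I presentation all had negative log2 fold changes (median -0.48). In edgeR 14 of them had an unadjusted p and 11 an adjusted p under 0.05, but none passed the threshold on fold change over the 10 libraries, nor did any with DESeq2 or without 66cl4 animals 5 and 6. Without 67NR animal 1, 2 were called lower, and without 66cl4 animal 4, 1 was. None of 16 genes of MHC class II was called by edgeR over the 10 libraries or without 66cl4 animals 5 and 6. Over the 10 libraries their median was -0.26, and 8 had an unadjusted and 6 an adjusted p under 0.05. The class II list sums did not overlap, at 88788 to 114216 in 66cl4 and 127900 to 176445 in 67NR. With 1 library left out, 4 were called lower without 67NR animal 1, 3 without 66cl4 animal 3 or 4 and 1 without 67NR animal 6 or 7. In the other direction, 1 was called higher by DESeq2, and by edgeR without 66cl4 animal 3 or 5 or with all 20 libraries in the fit. H2-Aa, a chain of MHC class II, was 17056, 20361, 13355, 15165 and 12076 in 66cl4 and 27322, 31891, 37069, 28822 and 28564 in 67NR (log2 fold change -0.96, SE 0.17, adjusted p = 0.00186), below the threshold on fold change.

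The promoters of interferon genes are shown since the members moved together. In the 250 bases before to 50 after the start of each gene (RefSeq, GRCm38.p6), the letters GAAA, 2 bases of any kind and GAAA again, the core of the element that interferon regulatory factors bind, were searched on both strands, overlaps included. They stood in 428 of 10474 tested genes with a window (4.09%), in 17 of 30 members of the type I list (56.7%) and in 11 of 19 of the interferon gamma list (57.9%). Among the called members the shares were 7 of 14 and 6 of 12. Excerpts of genes called lower are given 5′ to 3′ on the strand of the gene, with the matching letters in capitals, where the motif on the other strand reads as TTTC, 2 bases and TTTC.
Ifit3 (chr19:34583353-34583436, plus strand): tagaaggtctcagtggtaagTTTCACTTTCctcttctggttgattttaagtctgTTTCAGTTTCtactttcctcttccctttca
Ifit1 (chr19:34640765-34640833, plus strand): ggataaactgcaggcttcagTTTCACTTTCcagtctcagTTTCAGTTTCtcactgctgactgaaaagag
Ifi205 (chr1:174031860-174031909, minus strand): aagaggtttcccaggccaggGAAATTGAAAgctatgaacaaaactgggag
Bst2 (chr8:71537567-71537622, minus strand): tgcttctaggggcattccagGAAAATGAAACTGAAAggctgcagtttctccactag
Tgtp2 (chr11:49064253-49064302, minus strand): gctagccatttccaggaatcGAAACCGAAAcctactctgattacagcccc
Cxcl10 (chr5:92349073-92349122, minus strand): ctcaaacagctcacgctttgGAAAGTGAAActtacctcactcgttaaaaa
Gbp7 (chr3:142530263-142530312, plus strand): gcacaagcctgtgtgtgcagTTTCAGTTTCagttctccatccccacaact
Log2 fold changes of these genes in CD45+ cells were -1.93 for Ifit3, -1.23 for Ifit1, -1.29 for Ifi205, -1.21 for Bst2, -1.49 for Tgtp2, -1.46 for Cxcl10 and -1.20 for Gbp7. A match describes the letters of the window and no binding was measured.

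**Figure D5:**
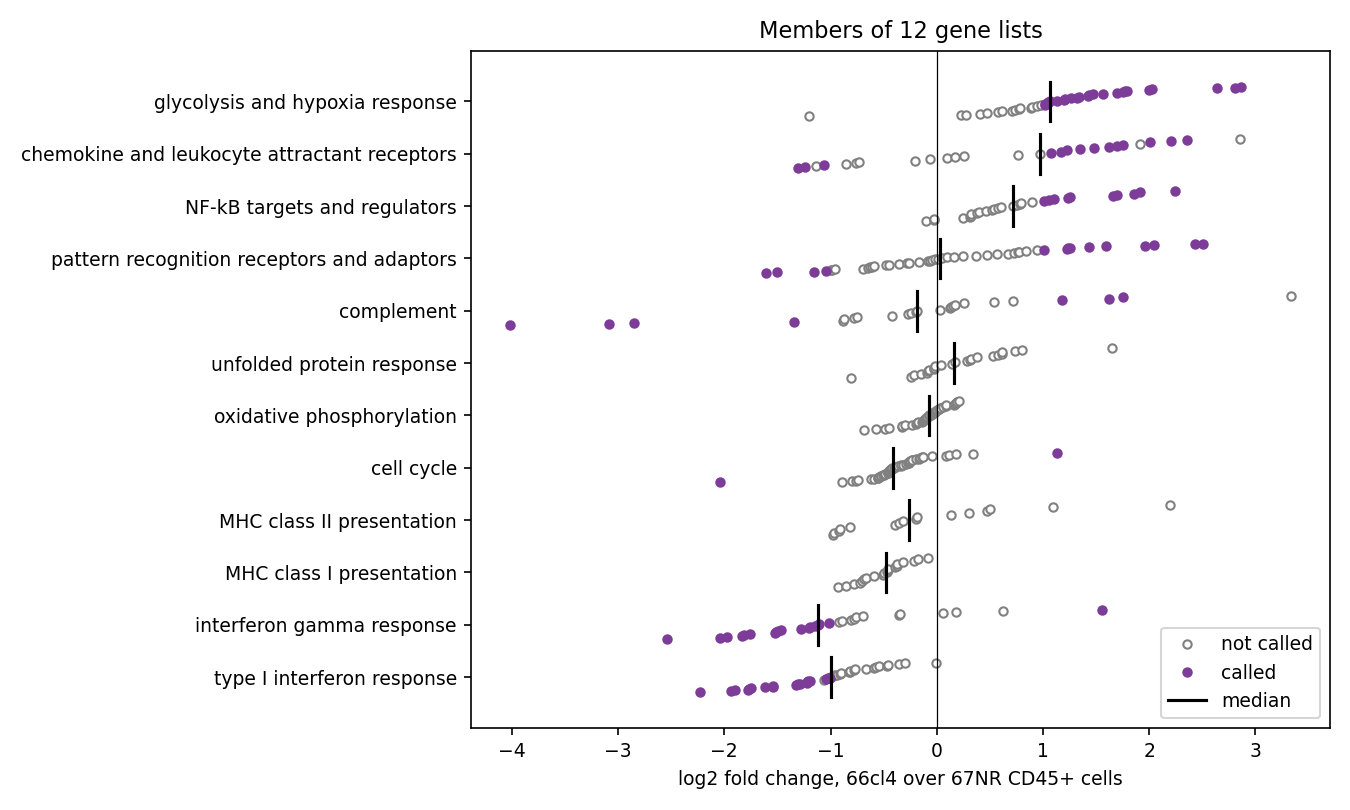
Log2 fold changes, 66cl4 over 67NR CD45+ cells, of the tested members of 12 gene lists. Each point is 1 gene, filled where it was called, and the bar is the list's median, which is -1.0 for the type I interferon response and 1.06 for glycolysis and the hypoxia response.

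Glycolysis and hypoxia genes were higher in 66cl4. Of 39 tested, 38 had a positive log2 fold change (median 1.06), 24 rose (61.5%, beside 5.01% over all genes) and none fell. The count was 10 without 66cl4 animals 5 and 6, with a median of 0.97, and 18 to 27 with any 1 library left out. Slc16a3, which exports lactate, was 3538, 1881, 6346, 2771 and 1572 in 66cl4 and 943, 535, 384, 451 and 264 in 67NR (log2 fold change 2.64, SE 0.45, adjusted p = 0.00261). Ankrd37, a target of hypoxia-inducible factor, was 489.6, 302, 563, 788 and 420.1 in 66cl4 and 105, 85.7, 45.7, 76.7 and 42.2 in 67NR (log2 fold change 2.86, SE 0.32, adjusted p = 0.000199). Pdk1, which keeps pyruvate out of mitochondria, was 815, 592, 954, 909 and 736 in 66cl4 and 237, 158, 156, 243 and 199 in 67NR (log2 fold change 2.02, SE 0.18, adjusted p = 3.61e-05). None of the 66cl4 libraries overlapped those of 67NR in these genes. Pdk1 was as high in the CD45- cells of 66cl4 (mean 969), and Ak4, a mitochondrial adenylate kinase (2.81 ± 0.40), was 189 there, whereas Slc16a3 had CD45- means of 8.31 and 18.8. Hif1a, which encodes the oxygen-regulated chain of the factor, was 25044, 16348, 23389, 18874 and 14887 in 66cl4 and 13030, 9546, 8619, 12069 and 6798 in 67NR, with a log2 fold change of 0.98, below the threshold. The 39 genes of oxidative phosphorylation had a median of -0.07. None was called by edgeR or DESeq2, and 2 had an unadjusted p under 0.05 in edgeR.

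The letters ACGTG, the core of the element bound by hypoxia-inducible factors, stood on either strand in 3029 of 10474 tested genes with a window (28.9%), in 26 of 36 members of this list (72.2%) and in 16 of its 21 called members (76.2%). Excerpts of called members follow in the same form, the capitals marking the motif on either strand.
Ankrd37 (chr8:45999851-45999876, minus strand): gcacatgtcagtgtttgggtACGTGa
Slc16a3 (chr11:120949020-120949066, plus strand): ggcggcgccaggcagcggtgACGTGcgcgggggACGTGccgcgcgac
Bnip3 (chr7:138909589-138909634, minus strand): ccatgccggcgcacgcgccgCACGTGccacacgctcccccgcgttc
Bnip3, a mediator of mitophagy, gave 1.77 ± 0.44 and lost its call without 66cl4 animals 5 and 6. In Bnip3 the palindrome CACGTG holds the letters on both strands. The comparison with the 28.9% does not adjust for base composition.

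Markers of cells outside the gate were present in the CD45+ libraries, and some moved with the tumour. Of 14 epithelial genes 4 passed the filter on low counts, of which Krt8 and Krt18, keratins of luminal epithelium, were called higher, also without 66cl4 animals 5 and 6. Krt8 was 75.1, 359, 256, 303 and 485 in 66cl4 and 17.2, 17.6, 6.1, 5.99 and 5.14 in 67NR CD45+ cells (log2 fold change 4.87, SE 0.55, adjusted p = 0.00027), beside CD45- means of 5353 and 61.6. The epithelial sum was 626 to 975 in 66cl4 and 267 to 339 in 67NR. Of 15 fibroblast genes, 5 fell and 1 rose, with sums of 1117 to 3272 in 66cl4 and 3713 to 6027 in 67NR. Only 2 fell and none rose without 66cl4 animals 5 and 6. With 1 library left out, 3 fell without any 1 of 66cl4 animals 3, 4, 5 or 6 or 67NR animal 4, 8 fell without 66cl4 animal 7, and none rose without any 1 of 66cl4 animals 3 or 5 or 67NR animals 4, 6 or 7. Dpt, a matrix protein of fibroblasts, was 11.1, 27.7, 11.6, 22.1 and 8.45 in 66cl4 and 844, 1385, 629, 381 and 279.8 in 67NR (log2 fold change -5.43, SE 0.55, adjusted p = 0.000179), beside CD45- means of 35.7 and 4261. Of 15 endothelial genes 7 passed the filter and 1, Kdr, fell, as it did without 66cl4 animals 5 and 6. The endothelial sum in 66cl4 was 796 to 1842 in CD45+ and 576 to 1233 in CD45- libraries. In 67NR it was 1297 to 2382 and 1507 to 6413. Slc4a1, the anion exchanger of red cells, was at 0 in the CD45+ libraries, and the 5 erythroid genes that passed the filter fell, with sums of 71.7 to 109 in 66cl4 and 198 to 1006 in 67NR, of which the haemoglobin genes are near-identical. Of these, 2 fell without 66cl4 animals 5 and 6 and 1 with all 20 libraries in the fit. The part of such cells in the results above was not tested.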

How the data were processed

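RNA of CD45+ and CD45- cells was sequenced from 10 tumours after preparation with the SENSE mRNA-Seq kit. The authors trimmed the reads and estimated transcript counts with Salmon 1.3.0, which tximport summed to genes. The authors deposited these estimated counts, 1 value for each of 52783 genes and library, without normalisation. The submitters' notes also name bcl2fastq 2.2.20. The notes name GRCh38 as the reference although the gene identifiers are those of mouse, so the table yields no coordinates. Symbols were matched for 51492 genes. Promoter sequences came from RefSeq (GRCm38.p6).

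Rounding the values to integers moved none of them by more than 0.5. The 10 CD45+ libraries were compared in R 4.3.3 with edgeR 4.0.16 (TMM, default low-count filter, set to 10 counts per library and 15 in total, robust quasi-likelihood fit, Benjamini-Hochberg adjustment). As in the study's methods, calls needed an adjusted p under 0.05 together with more than 1 log2 unit of change. The tumour by gate interaction was fitted over all 20 libraries by group means, without pairing the CD45+ and CD45- libraries of an animal. With each animal as a block it gave 7150 calls instead of 7098. Levels used size factors of DESeq2 1.42.0. Ptprc was compared by an exact permutation test. Scripts were tested on simulated data. Python 3.11.15 and matplotlib 3.10.9 served for the plots.

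Libraries were grouped by title, and replicates are separate animals. No 2 replicates were copies of 1 library. A count of 0 allows up to 3 counts, which covers counting error only. Named genes were the 15 in each direction with the largest fold change (mean of at least 100, no overlap, not lower in CD45+ than in CD45- cells, no clone names, not among 12 genes the study singled out), up to 4 called members per list and direction and up to 4 of the most expressed, list markers given as checks, and the most expressed and most variable genes. Other list members named to show a group (among them Klrk1, Gzmc, Lcn2, Cd3e, Rsad2, Kit and the promoter examples) were chosen after their values were seen. Some list members are not reported here. Members and gene lists were chosen with earlier results of these data known. The list genes Trgc1, Trgc2, Ahsp, Il36g, Clec6a, H2-L and Ear11 were not matched. Near-identical genes (granzymes, tryptases, haemoglobins, Ifit3 and Ifit3b) share reads, so their counts are uncertain. Alternatives were DESeq2's test, RLE factors, 2 other filters, all 20 libraries in the fit, a test against the fold threshold, a replicate block, and leaving out 66cl4 animals 5 and 6 or each library.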

Additional observations from a re-analysis of the deposited data

Results flagged for a closer look

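Among 114 groups of 5 CD45+ libraries examined for a value far from the others, 4 held one, each in 67NR. Chance alone marks about 1 in 20 such groups. Mlxipl was 1.1 in animal 4 and 4.07 to 5.14 in the other animals. Sel1l3 was 25.2 in animal 6 beside 6.24 to 11 in the others. In animal 7, Spats2l reached 641 beside 175 to 255, and Lipg reached 729 beside 81.2 to 261. By the rule that chose these genes, none of the values overlapped the 66cl4 libraries.

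The effect of the tumour was different in CD45+ and CD45- cells for 21 of the 30 genes with the largest changes (interaction over all libraries, adjusted p under 0.05), beside 970 of all 1736 called genes. The 30 were chosen by their change in CD45+ cells and their gate, so this count is a description. The log2 effect in CD45+ cells minus that in CD45- cells was 5.78 for Sel1l3, 5.55 for Fam20a, 4.99 for Col14a1, 4.80 for Cxcl14, 4.46 for Lix1, 4.14 for Mlxipl, 4.13 for Edil3, 3.66 for Olr1, 3.47 for Ambp, 2.59 for F5, 2.15 for Mmp9, 1.86 for Saa3 and 1.68 for Raet1d, all of them higher in 66cl4 CD45+ cells. It was -4.75 for Lipg, -3.59 for Spon1, -3.25 for Vcam1 and -2.87 for Spats2l, which were lower there. The mast cell genes had positive values, 5.10 for Fcer1a, 4.70 for Mcpt4, 4.48 for Tpsb2 and 3.23 for Mrgprb1. These genes were lower in 66cl4 in both gates, and by more in the CD45- libraries, where Mcpt4 averaged 1891 in 67NR and 4.64 in 66cl4.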

How the results depend on the processing

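The number of called genes in CD45+ cells (1736) was 1297 to 2538 under the alternatives other than the next, among them DESeq2 (2538), no filter (2158) and 66cl4 animals 5 and 6 left out (1297), and 1507 to 1880 with 1 library left out. It was 513 in a test against the fold threshold itself, which asks more of each gene. No gene called in the main comparison was called in the opposite direction in any of these. The interaction count (7098) was 5753 to 7773 and the Ptprc ratio 0.834 to 0.964. The replicate block, with the animal number of the titles as the block, gave 1340 calls, 1220 of them shared. With it, 4 of the MHC class II genes, 7 pattern recognition genes and 5 receptors for chemokines and attractants fell, against 0, 4 and 3, 2 fibroblast and 2 erythroid genes fell, against 5 and 5, and 1 gene of the unfolded protein response rose. These numbers were not shown to pair animals (correlations of the deviations 0.022, -0.024, 0.142 and 0.072 for animals 4 to 7).

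Of 99 called genes named in the text, 67 kept their calls in every alternative, and 32 lost theirs in the test against the fold threshold. In that test 1 neutrophil marker, 1 gene of the NF-kB list and 5 glycolysis and hypoxia genes were called higher. Called lower in it were 3 NK markers, 9 type I interferon and 6 interferon gamma response genes, while the mast cell count stayed at 12. Without a filter, 11 lost their calls, among them Ncr1 and Gzmb, and the calls among the 16 NK and 19 neutrophil markers were 7 and 7, and 2 cytotoxic genes rose and 5 fell. Adgre1 and Itgam lost theirs with all 20 libraries in the fit. Calls near the threshold rest on 5 animals per tumour.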

Other observations

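Proliferation genes gave few calls. Of 50 cell cycle genes tested, 5 had a positive log2 fold change (median -0.41), 22 had an unadjusted p and 11 an adjusted p under 0.05 in edgeR, 1 rose and 1 fell. Without 66cl4 animals 5 and 6 none rose and 2 fell, none rose without 66cl4 animal 5, and 2 fell without 66cl4 animal 7 or 67NR animal 1. Mki67, a marker of cycling cells, was 3562, 4488, 3366, 4122 and 5358 in the 66cl4 and 4039, 4050, 5747, 6432 and 7166 in the 67NR CD45+ libraries, with overlap. None of 24 genes of the unfolded protein response was called by edgeR over the 10 libraries (median 0.16), and 8 had an unadjusted p under 0.05. Of these 24, 1 was called higher by DESeq2, and by edgeR without 67NR animal 1 or with all 20 libraries in the fit, and 1 was called lower without 66cl4 animals 5 and 6.

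Over 9968 genes with a mean of at least 100 normalised counts in 66cl4 the median SD of log2 levels was 0.251, and over 10246 such genes in 67NR it was 0.229. The SD was over 1 for 185 of these genes in 66cl4 and 311 in 67NR. Of 18 markers of conventional dendritic cells tested, 4 fell and none rose (median -0.63), with the same counts without 66cl4 animals 5 and 6.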
